A study of Homo sapiens with 6 samples.

Results

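RNA-seq of MDA-MB-231, a line of human breast cancer cells that lack hormone receptors and HER2 amplification, was examined for 9 genes that encode RNA-binding proteins and are mostly spread over long stretches of the genome. They were RBMS1, RBMS2, RBMS3, RBFOX2, MSI2, CELF1, QKI, MBNL1 and MBNL2, matched by symbol among the 63241 Ensembl gene identifiers of each library. The cells were treated for 24 h with 5 μM NCD (nitidine chloride, a plant benzophenanthridine alkaloid) or with 0.1% DMSO as the vehicle, with 3 libraries in each of the 2 groups. All 6 libraries carried the genotype label WT and came from the same cell line field, while the description text of NCD replicate 2 and of NCD replicate 3 named other line numbers (MDA-MB-232 and MDA-MB-233). The labels do not say whether the libraries came from separate cultures, so p-values measure only the spread between these libraries.

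RNA-binding proteins attach to short sequence elements in RNA and set how a transcript is spliced, where it goes, how long it lasts and how much protein it yields. Proteins of the RBFOX, muscleblind (MBNL), CELF and Quaking (QKI) families act on pre-mRNA splicing, and their balance shifts during differentiation and in the epithelial to mesenchymal transition of carcinoma cells. Musashi (MSI) proteins and several of the others also act on translation or stability of mature mRNA. Read counts per gene, as used here, hold no information on which exons were joined.

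The 9 genes had been selected on their fold changes in this same contrast and on their length, so their values are a description and carry no test. Each of the 9 was lower with NCD than with DMSO, with log2 fold changes from -6.57 for RBMS3 to -1.02 for CELF1 and a median of -2.02, against a median of 0.04 over the 15295 genes tested. All 9 passed the filter on low counts, and all 9 met the rule for a lower gene (Benjamini-Hochberg adjusted p below 0.05 in edgeR's quasi-likelihood test and a log2 fold change below -1), which 17.5% of all tested genes met. In all 9 every NCD library lay below every DMSO library, as in 35.3% of all tested genes. Both counts were open to the choice of the genes, and nothing is read from them. The summed level of the 9 genes was 1078 ± 70.5 with DMSO and 346.7 ± 25.7 with NCD in CPM, read counts scaled to library size (SD, n = 3 each). CPM is relative to the whole library, so fewer molecules per cell and fewer cells holding them cannot be told apart in bulk RNA.

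The libraries held 18223594 to 19410833 counts with DMSO and 18232169 to 21629653 with NCD. The cell line label was set against its markers, and VIM, CD44, AXL, MSN and CAV1 were each at 208.6 CPM or more in every library, and ESR1, PGR, CDH1 and GRHL2, 4 of 5 genes followed as absent or low, had fewer than 10 counts in each. The other, EPCAM, had 45 to 51 counts in DMSO and 73 to 93 in NCD, a log2 fold change of 0.57 (SE 0.16) that was not called. Of 9 genes of immune, endothelial and fibroblast cells, 6 had fewer than 10 counts in every library, and their summed level was 84.4 to 94.4 CPM with DMSO and 102 to 108.5 CPM with NCD, most of it CD68. The 5 markers of the line summed to 6199 to 6487 CPM with DMSO and 3774 to 4073 CPM with NCD, with CD44, AXL and MSN called lower, and COL1A1 was called higher while COL1A2 and DCN had at most 1 count in any library. The part of these markers in the results was not tested. Over all tested genes 2067 were called higher and 2669 lower. Scaling by library totals in place of TMM gave 2793 higher and 2181 lower and raised the median log2 fold change of all genes by 0.20.

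**Figure D1:**
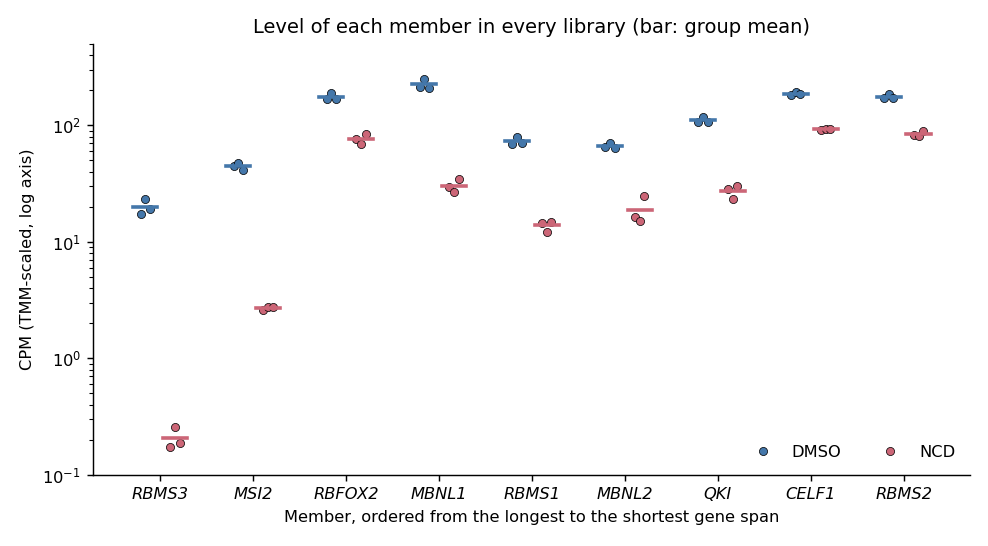
Level of each gene in the 3 DMSO libraries (blue) and the 3 NCD libraries (red), in CPM on a log axis, with a bar at each group mean, and genes ordered from the longest to the shortest span. The groups do not overlap for any gene, and the share of the DMSO level left with NCD runs from 1.03% for RBMS3 to 49.4% for CELF1.

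The RBMS family binds A/U-rich single-stranded nucleic acid through a pair of RNA recognition motifs. RBMS3, which is known to stabilise some of its target mRNAs, lies at chr3:28574791-30010391 on the plus strand (GENCODE release 29, GRCh38). In the DMSO libraries 290, 413 and 352 counts were assigned to it, and in the NCD libraries 4, 5 and 4. All 3 NCD libraries were close to the lower end of what this depth can measure, with 13 counts among them. The DMSO level was 20.1 ± 3.02 CPM and the NCD level 0.207 ± 0.0454 CPM (SD, n = 3 each), which left 1.03% of the DMSO level. The log2 fold change was -6.57 (SE 0.22), or -6.03 when edgeR's prior count was raised to 2.

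RBMS1, a further mRNA-stabilising member of the family, lies at chr2:160272151-160493794 on the minus strand. It had 69.5, 80.1 and 71.2 CPM in the DMSO libraries and 14.5, 12.2 and 14.9 CPM in the NCD libraries. The lowest DMSO library was 4.67 times the highest NCD library, and the log2 fold change was -2.41 (SE 0.10). RBMS2, at chr12:56521929-56596196 on the plus strand, is the shortest of the 9 genes. Its levels were 172.1, 186.4 and 171.0 CPM with DMSO and 82.3, 81.3 and 89.8 CPM with NCD. The groups were separated by a factor of 1.90 between their nearest libraries, and the log2 fold change was -1.06 (SE 0.07). At its 3′ end it overlaps BAZ2A on the opposite strand, a gene of 1818 to 2229 counts in DMSO and 3088 to 3749 in NCD (log2 fold change 0.51, SE 0.07).

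Within the family the mix therefore shifted towards RBMS2. When each level was divided by the length of the gene's merged exons, RBMS2 made up 73.2 ± 0.825% (SD, n = 3) of the family's summed level with DMSO and 89.0 ± 0.763% (SD, n = 3) with NCD. The share of RBMS1 went from 22.8 ± 0.451% to 10.9 ± 0.789%, and that of RBMS3 from 3.98 ± 0.374% to 0.105 ± 0.0276% (SD, n = 3 each). The 3 mRNAs can be told apart by their reads, since the longest exact stretch shared by any 2 of them was 36 bases, between RBMS2 and RBMS3. Of all 50-base windows in their annotated transcripts, 4.32% of those of RBMS1, 15.5% of RBMS2 and 8.95% of RBMS3 recurred in other genes. The gene sharing most with RBMS1 was the pseudogene RBMS1P1 (at most 6 counts in any library) and that for RBMS2 was RBMS2P1 (0 counts in every library). For RBMS3 it was ENSG00000283563, with at most 7 counts in any library.

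The 250 bases before a RefSeq start (GRCh38.p14) are shown for the 3 family members and for MSI2, the gene with the next largest fold change. These windows differ widely in base composition. Those of RBMS3 and MSI2 lie inside the GENCODE spans of these genes, which have other annotated starts, and those of RBMS1 and RBMS2 lie just outside. Sequences run 5′ to 3′ on the gene's strand and capitals mark CpG dinucleotides. The RBMS3 window is at chr3:29280821-29281070, that of MSI2 at chr17:57256769-57257018, that of RBMS1 at chr2:160493808-160494057 and that of RBMS2 at chr12:56521570-56521819.
RBMS3: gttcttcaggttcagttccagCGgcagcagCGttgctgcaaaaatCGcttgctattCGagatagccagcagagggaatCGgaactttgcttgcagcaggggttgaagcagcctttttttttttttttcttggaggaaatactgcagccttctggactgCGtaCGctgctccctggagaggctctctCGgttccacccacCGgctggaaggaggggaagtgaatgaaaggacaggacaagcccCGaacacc
MSI2: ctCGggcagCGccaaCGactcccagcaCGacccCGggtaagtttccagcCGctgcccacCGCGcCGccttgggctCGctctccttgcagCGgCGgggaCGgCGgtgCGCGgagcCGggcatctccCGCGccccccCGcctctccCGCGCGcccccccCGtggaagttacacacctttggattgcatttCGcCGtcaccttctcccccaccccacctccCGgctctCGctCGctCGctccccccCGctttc
RBMS1: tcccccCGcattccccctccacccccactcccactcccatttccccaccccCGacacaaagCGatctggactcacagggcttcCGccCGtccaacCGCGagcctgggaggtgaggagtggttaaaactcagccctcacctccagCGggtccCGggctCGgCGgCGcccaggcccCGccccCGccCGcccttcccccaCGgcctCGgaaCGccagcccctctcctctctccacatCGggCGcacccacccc
RBMS2: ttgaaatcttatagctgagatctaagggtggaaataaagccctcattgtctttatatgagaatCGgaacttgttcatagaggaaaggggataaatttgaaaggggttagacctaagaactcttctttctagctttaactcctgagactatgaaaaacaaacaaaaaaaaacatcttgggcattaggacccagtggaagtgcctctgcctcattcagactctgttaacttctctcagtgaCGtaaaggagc

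The windows of RBMS1 and MSI2 were rich in G and C (71.6% and 72.8%) and held 20 and 31 CpG dinucleotides. That of RBMS3 had 53.2% GC and 10 CpG, and that of RBMS2 had 39.2% GC and 2 CpG. Over the 35116 promoters of the RefSeq table the medians were 58% GC and 11 CpG. The hexamer GGGCGG (a GC box, searched on both strands) occurred 4 times before RBMS1 and not in the other 3 windows, and 42.6% of all promoters held it. TATAAA, searched in the same way, occurred once before RBMS2 and in 10.7% of all promoters. From the largest to the smallest difference with NCD, the 4 genes thus held 10, 31, 20 and 2 CpG. With MBNL1, MBNL2 and CELF1, whose windows are not shown, the order is RBMS3, MSI2, MBNL1, RBMS1, MBNL2, RBMS2 and CELF1. In that order the windows held 10, 31, 12, 20, 4, 2 and 1 CpG. The windows of MBNL1, MBNL2 and CELF1 lie inside the GENCODE spans of these genes, that of CELF1 at chr11:47494522-47494771. These genes have several annotated starts, and only 1 window per gene was read. The counts therefore need not describe the start that the cells used. Whether CpG content goes with the fold change was not tested. In all, 7 of the 9 genes were matched in that table, and RBFOX2 and QKI were not.

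MSI2, a Musashi protein that regulates translation in stem and progenitor cells, lies at chr17:57255851-57684685 on the plus strand. DMSO gave 748, 840 and 752 counts and NCD gave 59, 53 and 59. These were 45.1, 47.5 and 41.2 CPM in the DMSO libraries and 2.58, 2.74 and 2.75 CPM in the NCD libraries. The NCD libraries were nearly alike (coefficient of variation 3.62%), and 6.03% of the DMSO level was left, for a log2 fold change of -4.05 (SE 0.10).

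CELF1, which binds GU-rich elements, regulates splicing and promotes mRNA decay, lies at chr11:47465933-47565569 on the minus strand. It had 182.4, 192.8 and 186.3 CPM with DMSO and 92.0, 92.2 and 93.1 CPM with NCD. It was the member with the smallest difference and the least spread, with 49.4% of the DMSO level left and a log2 fold change of -1.02 (SE 0.05). Its 5′ end overlaps PTPMT1 and NDUFS3 on the opposite strand, neither of them under 756 counts in any library, with log2 fold changes of 0.17 (SE 0.10) and 0.39 (SE 0.11). Whether the counting used strand is not given in the sources used here, and 1.87% of the 50-base windows of CELF1 recurred in other genes.

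MBNL1 and MBNL2 are the muscleblind proteins that expanded CUG repeats sequester in myotonic dystrophy, and they oppose CELF1 on a number of exons. MBNL1, at chr3:152243828-152465780 on the plus strand, had 212.7, 251.5 and 209.3 CPM with DMSO and 29.4, 27.0 and 34.7 CPM with NCD. The lowest DMSO library was 6.03 times the highest NCD library, and the log2 fold change was -2.88 (SE 0.11). MBNL2, at chr13:97221434-97394120 on the plus strand, had 65.6, 70.4 and 63.4 CPM with DMSO and 16.4, 15.1 and 24.9 CPM with NCD.

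NCD replicate 3 stood above the other NCD libraries for MBNL2, whose coefficient of variation with NCD, 28.6%, was the highest of the 9 genes. The log2 fold change of MBNL2 was -1.82 (SE 0.17), and -2.09 without that library. Per length of merged exons, MBNL1 made up 62.3 ± 1.21% (SD, n = 3) of the summed level of both genes with DMSO and 44.8 ± 3.60% (SD, n = 3) with NCD. By that measure MBNL2 was the more abundant of the pair in all 3 NCD libraries, while in CPM MBNL1 was. Merged exons, 9.99 kb for MBNL1 and 4.91 kb for MBNL2, take in every annotated transcript. Which transcripts the cells made is not known. The antisense gene MBNL1-AS1, which shares 1044 windows with MBNL1, had at most 16 counts in any library.

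QKI, a STAR-family splicing regulator that is required for myelination and drives circular RNA formation, lies at chr6:163414000-163578596 on the plus strand. It had 106.2, 118.5 and 107.3 CPM with DMSO and 28.7, 23.3 and 29.9 CPM with NCD. A level of 24.7% was left, for a log2 fold change of -2.02 (SE 0.10). No annotated gene overlaps QKI, and none of its 50-base windows recurred in another gene.

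RBFOX2, a splicing regulator whose targets include many exons that switch in the epithelial to mesenchymal transition, lies at chr22:35738736-36028425 on the minus strand. It had 167.1, 188.8 and 167.2 CPM with DMSO and 76.3, 69.5 and 84.1 CPM with NCD. The nearest libraries of the groups differed by a factor of 1.99, and the log2 fold change was -1.19 (SE 0.08). Of the 9 genes only RBMS3 and MSI2 are longer, and only CELF1 and RBMS2 had smaller differences. With library totals in place of TMM its log2 fold change was -0.99, that of RBMS2 was -0.87 and that of CELF1 was -0.82, so that these 3 genes no longer met the rule and 6 of 9 remained, beside 14.3% of all tested genes under that scaling.

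DMSO replicate 2 was the highest DMSO library for 9 of 9 genes, as for 45.1% of all tested genes and 67.8% of those in the top decile of span. NCD replicate 3 was the highest NCD library for 8 of 9, as for 41.6% of all tested genes and 55.9% of the top decile. When any 1 library was left out, all 9 genes still met the rule. The ranges over those 6 fits were -6.74 to -6.46 for RBMS3, -4.13 to -4.01 for MSI2 and -1.06 to -1.01 for CELF1.

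Per kb of merged exons, the order of the genes in DMSO was MBNL1 (22.5 ± 2.35 CPM per kb, SD, n = 3), RBMS2 (20.0 ± 0.973), CELF1 (17.9 ± 0.506), RBFOX2 (17.4 ± 1.24), MBNL2 (13.5 ± 0.727), QKI (6.37 ± 0.393), RBMS1 (6.25 ± 0.482), MSI2 (2.08 ± 0.148) and RBMS3 (1.09 ± 0.165). MBNL1 and RBMS2 overlapped in their libraries, as did CELF1 and RBFOX2, and QKI and RBMS1, while the other neighbours in this order did not. With NCD the order was RBMS2 (9.59 ± 0.526 CPM per kb, SD, n = 3), CELF1 (8.84 ± 0.0549), RBFOX2 (7.65 ± 0.728), MBNL2 (3.83 ± 1.09), MBNL1 (3.04 ± 0.396), QKI (1.57 ± 0.201), RBMS1 (1.18 ± 0.124), MSI2 (0.125 ± 0.00453) and RBMS3 (0.0113 ± 0.00248). MBNL1 moved from rank 1 to rank 5, where its libraries overlapped those of MBNL2. By this measure the most abundant gene was 20.6 times the least abundant with DMSO and 851 times with NCD. The ranks depend on the annotated exons of each gene.

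The gene span is the distance from annotated start to end, introns included. It was 1435.6 kb for RBMS3, 428.8 kb for MSI2, 289.7 kb for RBFOX2, 222.0 kb for MBNL1, 221.6 kb for RBMS1, 172.7 kb for MBNL2, 164.6 kb for QKI, 99.6 kb for CELF1 and 74.3 kb for RBMS2. The merged exons took up only 1.28% of the span of RBMS3 and 11.9% of that of RBMS2. Of the 14692 tested genes with an annotated span, the top decile began at 153.1 kb and held 7 of the 9 genes, with CELF1 in decile 9 and RBMS2 in decile 8.

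Over all 14692 genes, the longer classes were lower with NCD. The top decile had a median log2 fold change of -2.09 (quartiles -3.05 and -1.24), decile 9 -0.93 (quartiles -1.40 and -0.33) and decile 8 -0.35 (quartiles -0.78 and 0.15). Of those classes 79.2%, 46.0% and 15.6% were called lower. When the top decile was divided into 5 classes of 294 genes, the medians ran from -1.50 for 153.1 to 177.8 kb, over -1.87, -2.22 and -2.92, to -3.46 for 385.3 to 2173 kb.

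**Figure D2:**
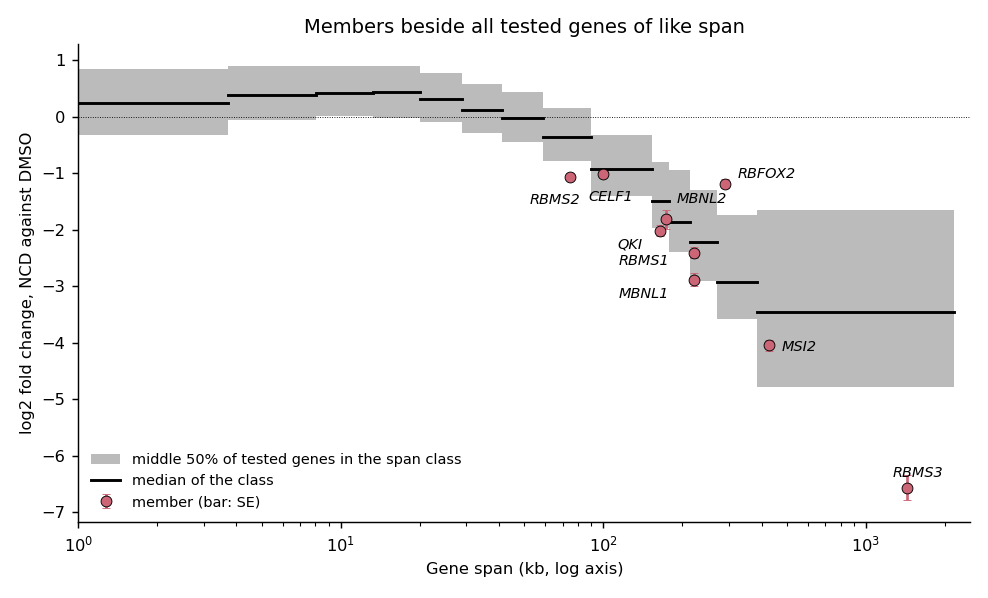
Log2 fold change (NCD against DMSO, with its SE) of the 9 genes against gene span in kb on a log axis, beside the median (black) and the middle 50% (grey) of all tested genes in classes of span: the 9 shorter deciles and 5 parts of the top decile. RBMS3 lies below and RBFOX2 above the grey band of its class, RBMS2 lies below the band of decile 8, and the others lie in or near theirs.

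Set against all genes of its own decile, RBMS3 was lower than all but 0.544% of them, and MSI2 than all but 11.1%. MBNL1 and RBMS1 were also below the median of the top decile, with 29.1% and 40.2% of its genes lower still. QKI, with 52.3% of those genes lower, and MBNL2, with 58.1%, were near the median. RBFOX2 was the exception in this class, with 76.1% of genes lower and a log2 fold change 0.91 above the class median. CELF1 was 0.09 below the median of its decile and RBMS2 0.71 below that of its own, where 13.8% of the genes were lower. In all, 6 of 9 genes were below the median of their decile and 3 below its lower quartile. The top decile is wide, and its 5 narrower classes gave other readings for some genes. QKI (-2.02) was below the lower quartile of its class (-1.97), and MBNL2 (-1.82) below the median of the same class (-1.50). MSI2 (-4.05) lay within the quartiles of its class (-4.79 and -1.65). RBFOX2 (-1.19) was above the upper quartile of its own (-1.74), where the median was -2.92.

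Across the 9 genes Spearman's correlation between span and log2 fold change was -0.80, and across the 14692 genes it was -0.50. Without the filter on low counts it was -0.21 across 27363 genes. With RefSeq spans, which give MBNL2 252.3 kb in place of 172.7 kb, the coefficient across the 9 was -0.72. These are descriptions across genes measured in the same 6 libraries, not independent replicates, and the 9 were named as long genes at the outset. Across the 9 the same coefficient was 0.60 between the DMSO level in CPM and the fold change, and 0.07 between the length of the first intron of the longest transcript and the fold change. That first intron ran from 0.3 kb in MSI2 to 288.7 kb in RBMS3.

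The span of a gene depends on which transcripts are counted in. RBMS3 spans 1435.6 kb in GENCODE through transcripts that start upstream of the coding ones of the basic set, GENCODE's selection of representative transcripts. The 7 protein-coding transcripts of that set cover 602.9 to 729.4 kb, and RefSeq gives 729.3 kb. RBFOX2 has 8 such transcripts with 7 starts, and they cover from 66.0 kb to 284.2 kb. Those of RBMS2 cover 7.5 to 74.3 kb and those of CELF1 20.2 to 87.2 kb. In MSI2 (338.2 to 428.2 kb), MBNL1 (159.1 to 197.7 kb), MBNL2 (171.8 to 172.7 kb) and QKI (149.5 to 164.0 kb) the shortest coding transcript is nearly as extended as the longest, while RBMS1 has both (95.4 to 221.6 kb).

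**Figure D3:**
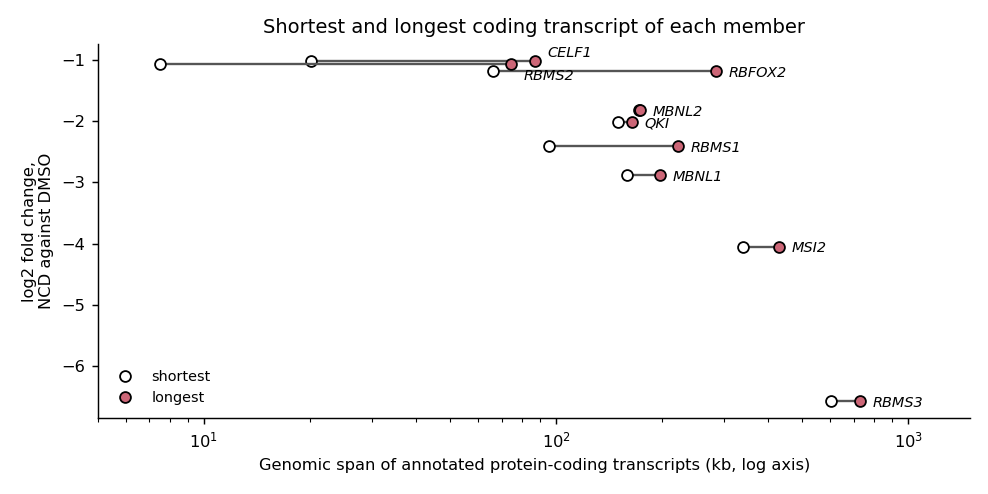
Log2 fold change of each gene (NCD against DMSO) against the genomic span in kb, on a log axis, of its shortest (open) and longest (filled) protein-coding transcript in the GENCODE basic set. The 3 genes with log2 fold changes from -1.19 to -1.02, RBFOX2, CELF1 and RBMS2, have annotated coding transcripts of 66.0 kb or less.

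Spearman's correlation across the 9 genes was -0.87 between the span of the shortest coding transcript and the log2 fold change, and -0.78 for the longest. This comparison was chosen after the values were seen. Counts per gene do not show which of these transcripts the cells made, and whether that differed between the groups was not tested.

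The genes that lie beside the 9 on the chromosome differed in direction. Of the 18 nearest tested protein-coding genes that do not overlap them, 1 on each side, 5 were called lower, 2 higher and 11 neither, with a median log2 fold change of -0.03. Over all tested genes 17.5% were called lower and 13.5% higher, or 31% either way. The neighbours of MSI2, AKAP1 and MRPS23, had log2 fold changes of 0.41 (SE 0.06) and 0.12 (SE 0.10), against -4.05 for MSI2 between them. Both spans are short, 36.3 and 15.3 kb.

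RBFOX2 lies between APOL6 and APOL3, members of the apolipoprotein L family, and both were called higher. APOL6 went from 25.4 ± 2.50 to 218.6 ± 13.8 CPM (SD, n = 3 each), a log2 fold change of 3.10 (SE 0.09, adjusted p = 1.94e-08 in edgeR's quasi-likelihood test, Benjamini-Hochberg adjusted). APOL3 went from 2.12 ± 0.145 to 14.0 ± 2.52 CPM (SD, n = 3 each), a log2 fold change of 2.72 (SE 0.18, adjusted p = 1.33e-06 in the same edgeR test). These genes are 70.3 and 111.9 kb from the ends of RBFOX2, and span 20.0 and 25.8 kb.

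Beside RBMS3, both ZCWPW2 and TGFBR2 fell. TGFBR2, the type II receptor for TGF-β, went from 160.6 ± 12.2 to 50.2 ± 0.205 CPM (SD, n = 3 each), a log2 fold change of -1.68 (SE 0.07, adjusted p = 9.33e-08 in edgeR's test), with 596.1 kb between the genes. ZCWPW2 was at 1.78 ± 0.308 CPM with DMSO and 0.379 ± 0.127 CPM with NCD (SD, n = 3 each). The neighbours of QKI, AGPAT4 and PDE10A, are 2139.9 and 1748.7 kb away and span 144.1 and 660.8 kb, and their log2 fold changes were -1.49 (SE 0.14) and -4.33 (SE 0.17). HS6ST3, beside MBNL2, had 2 counts in the NCD libraries together, too few for a fold change to be read, although it was among the neighbours called lower. The genes beside CELF1 and RBMS2 span 6.8 to 11.1 kb, and none of those 4 was called, with log2 fold changes from -0.17 to 0.25.

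**Figure D4:**
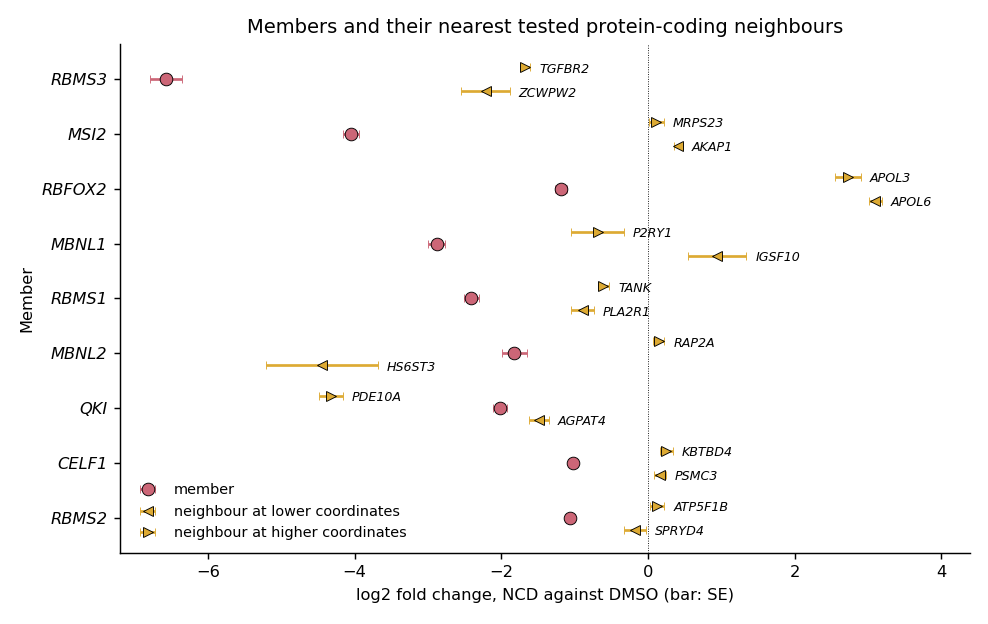
Log2 fold change with its SE of each of the 9 genes (circles) and of the nearest tested protein-coding gene on each side (triangles, pointing to lower or higher coordinates). MSI2, CELF1 and RBMS2 lie to the left of neighbours near 0, RBFOX2 lies between neighbours near 3, and the value of HS6ST3 rests on 2 counts in the NCD libraries.

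The 5 protein-coding genes most like RBMS3 over the 6 libraries were sought by the root mean square difference of log2 CPM, centred on the DMSO mean, among 12686 tested genes. They were AGAP1 (0.12 on the log2 scale), FAF1 (0.24), CDK14 (0.32), DOCK4 (0.32) and LPP (0.35). Their spans ran from 480.3 kb for DOCK4 to 744.2 kb for CDK14, and their log2 fold changes from -6.56 for CDK14 to -5.74 for DOCK4. With NCD, CDK14 and AGAP1 were at a mean of 0.171 and 0.428 CPM. Like RBMS3, they were close to the lower end of what this depth can measure. Fold changes like that of RBMS3 follow from the way these genes were picked, and nothing is read from them. LPP lies on chromosome 3 like RBMS3, and the others lie on chromosomes 1, 2 and 7. FAF1 and LPP were more abundant in DMSO, at 99.4 and 111.8 CPM, than RBMS3 at 20.1 CPM.

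The closest relatives of the 9 genes were followed as a list of 13 paralogs, of which 5 had counts enough to be tested. CELF2, KHDRBS3 and MBNL3 were called lower and none higher, beside 17.5% lower and 13.5% higher among all tested genes. In the fits without DMSO replicate 1, 2 or 3 or without NCD replicate 1, in which 7 or 8 of the list were tested, 1 was called higher and 3 lower. CELF2, the paralog of CELF1, spans 538.3 kb, and its 480, 565 and 492 counts in DMSO compare with 16, 16 and 14 in NCD. Its log2 fold change was -5.33 (SE 0.14, adjusted p = 1.58e-08 in edgeR's quasi-likelihood test, Benjamini-Hochberg adjusted), against -1.02 for CELF1. KHDRBS3, a STAR protein like QKI that spans 199.3 kb, fell by 2.75 on the log2 scale (SE 0.10, adjusted p = 5.35e-08 in the same edgeR test). MBNL3, of 120.7 kb, fell by 1.83 (SE 0.20, adjusted p = 4.19e-05).

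KHDRBS1 (47.0 kb) and SF1 (14.2 kb), both abundant STAR-family proteins, were not called, with log2 fold changes of -0.53 (SE 0.05) and -0.19 (SE 0.06). MSI1, the paralog of MSI2, was below the filter at 4, 1 and 1 counts in DMSO against 10, 17 and 16 in NCD. RBFOX1 had 0 counts in every library, which allows at most 3 counts by counting error alone, and RBFOX3 had 3 to 12. CELF3, CELF4, CELF5, CELF6 and KHDRBS2 were also below the filter, with at most 18 counts in any library.

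Other RNA-binding proteins were read as 4 further lists. Of 33 tested splicing regulators 3 were called higher and 6 lower, with a median log2 fold change of -0.32, beside 13.5% higher and 17.5% lower among all tested genes. With library totals 4 were called higher and 4 lower. The largest rises with a mean of at least 5 CPM were RBM24 (1.13, SE 0.07) and RBM38 (1.03, SE 0.09), RNA-binding proteins known from muscle differentiation and from the p53 response respectively. The largest falls were SFPQ (-1.79, SE 0.06), a paraspeckle protein that spans only 16.8 kb, PTBP3 (-1.56, SE 0.11) and RALY (-1.32, SE 0.09). Their adjusted p-values in edgeR's quasi-likelihood test, Benjamini-Hochberg adjusted ran from 3.48e-08 for SFPQ to 6.44e-06 for RBM38.

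Among 23 heterogeneous nuclear ribonucleoproteins, abundant proteins that coat nascent transcripts, 0 were called higher and 3 lower (13%), with a median of -0.48. Among all tested genes 13.5% were called higher and 17.5% lower. HNRNPA3 (-1.64, SE 0.06), HNRNPA1 (-1.15, SE 0.07) and HNRNPA2B1 (-1.07, SE 0.07) fell, with adjusted p-values of 6.12e-08, 7.43e-07 and 1.33e-06 in edgeR's test. These span 6.9 to 28.5 kb, and HNRNPA1 in particular has many processed copies in the genome that could share its reads. With library totals 1 gene of the list was called lower, and 5 were without DMSO replicate 3 or without NCD replicate 1. No gene of this list spans 100 kb.

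Of 44 tested regulators of mRNA stability, storage and translation 2 were called higher (4.55%) and 11 lower (25%), with a median of -0.47. Over all tested genes the shares were 13.5% higher and 17.5% lower. The rises were those of ZFP36L2 (1.33, SE 0.08) and ZFP36 (1.17, SE 0.12), which bring AU-rich mRNAs to decay and span 4.2 and 2.6 kb. The largest falls were STAU2 (-3.02, SE 0.12), a double-stranded RNA-binding transport factor of 327.3 kb, SAMD4A (-2.96, SE 0.10), a translational repressor of 226.2 kb, and IGF2BP2 (-2.73, SE 0.07), an mRNA-stabilising protein of 181.3 kb. The adjusted p-values of these 5 ran from 1.58e-08 to 2.19e-05 in edgeR's test. Under library totals 3 genes of the list were called higher and 5 lower.

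RBFOX proteins work within a large assembly of splicing regulators, of which 7 other proteins were followed. MATR3 was called lower (-1.13, SE 0.10, adjusted p = 1.07e-05 in edgeR's test) and no other. That is 14.3% of the 7, beside 17.5% of all tested genes. The value of MATR3 is uncertain, since 2 Ensembl identifiers carry its name and could share reads, and it was not called under library totals. HNRNPC (-0.57, SE 0.08), HNRNPH1 (-0.54, SE 0.10), HNRNPM (-0.23, SE 0.06), DDX5 (0.12, SE 0.06) and HNRNPUL2 (0.27, SE 0.05) were within the fold limit. RBFOX2 itself was at -1.19 (SE 0.08), a value within the SE of that of MATR3.

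**Figure D5:**
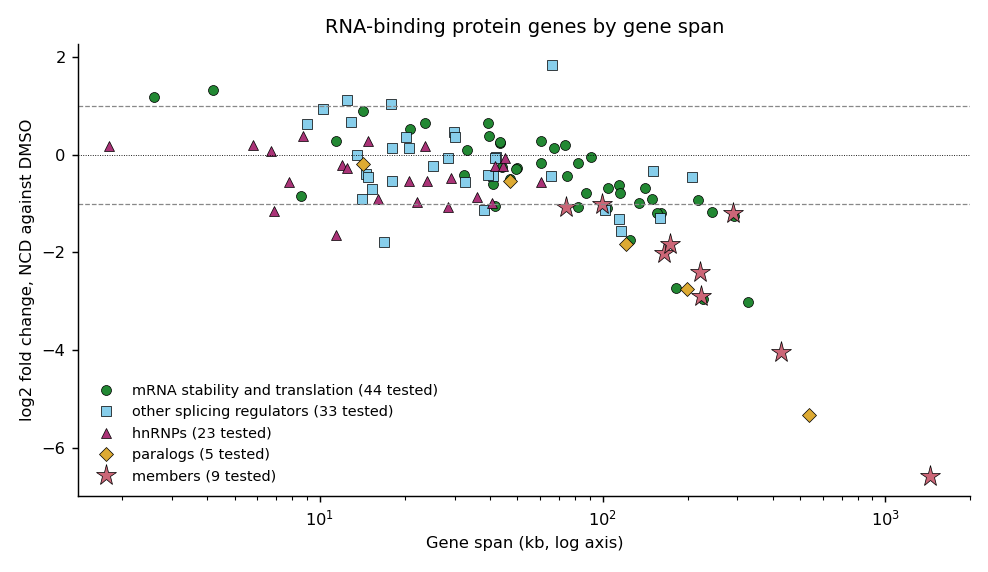
Log2 fold change (NCD against DMSO) of all tested genes of 4 lists of RNA-binding proteins and of the 9 genes (stars), against gene span in kb on a log axis, with dashed lines at the limits of -1 and 1. Points below -2 are all of genes longer than 100 kb, and the points above 1 are all of genes shorter than that.

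The 5 comparison lists together held 107 tested genes, of which 25 span 100 kb or more. Of those 25, 16 were called lower (64.0%) and 0 higher, with a median of -1.18. Of the 82 shorter genes 7 were called lower (8.54%) and 5 higher, with a median of -0.21. Among all tested genes of 100 kb or more 67.0% were called lower and 1.91% higher, with a median of -1.46. Among all shorter genes 7.01% were called lower and 15.8% higher, with a median of 0.19, against 6.10% higher among the shorter genes of the lists. The differences between the lists and all genes were not tested. The 9 genes, 7 of them of 100 kb or more, had a median of -2.41 over those 7.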

How the data were processed

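MDA-MB-231 libraries (3 with DMSO, 3 with NCD) were grouped by their titles. Per the labels, the authors aligned reads with HISAT2 and estimated counts with RSEM on GRCh38 (hg38). The deposited values are these expected counts per Ensembl gene, not normalized. Versions, annotation release and strandedness are not given in the sources used here. In each library 25 stray lines without a gene were skipped.

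Counts were rounded, filtered with filterByExpr, scaled by TMM (factors 0.911 to 1.09) and tested with glmQLFit and glmQLFTest in edgeR 4.0.16 (R 4.3.3). Called genes had an adjusted p (Benjamini-Hochberg) under 0.05 and a log2 fold change beyond 1 in size. The SE is the absolute log2 fold change over the square root of F. On simulated counts for this comparison, 190 of 192 changed genes among 14997 tested were called, with 6 false calls. Rises and falls were balanced in the simulation, and all were set well beyond the fold limit. In the data 31% of tested genes were called, and differences near the limit were not simulated. The simulated rates therefore do not carry over to the calls reported here. Replicates differed by more than sampling noise in every pair (chi-square per degree of freedom at least 2.09). Intervals and limits cover counting error only.

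Symbols were found for 62666 of 63241 identifiers. Spans and coordinates came from GENCODE release 29 (58228 identifiers), promoters and RefSeq spans from RefSeq tables. Where 2 identifiers shared a symbol, the one with more counts was used. Named genes were the 9 genes, tested paralogs, up to 3 largest rises and falls of each other list among called genes averaging 5 CPM or more, the assembly's genes, nearest neighbours and the 5 genes most like RBMS3 (prior count 2), and some neighbours and overlapping genes are summarised only. Of the assembly, 1 gene is not reported here. The genes and lists were chosen with earlier results of these data known. DESeq2 1.42.0, limma 3.58.1 (voom), other scalings, filters and span definitions, a replicate block and fits without each library were alternatives. Tables used pandas and scipy.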

Additional observations from a re-analysis of the deposited data

How the results depend on the processing

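Of 116 recomputed log2 fold changes of the 9 genes, 113 kept their direction and the call, 3 lost the call (RBFOX2, RBMS2 and CELF1 under library totals) and 0 changed sign. Library totals left 6 of 9 genes called, 1 of the heterogeneous nuclear ribonucleoproteins in place of 3, 8 of the mRNA fate list in place of 13 and 0 of the RBFOX assembly in place of 1. That scaling moved the median of the top decile of span from -2.09 to -1.89. Adjusted p alone, with no fold limit, gave 10602 genes in place of 4736, with 5 paralogs in place of 3, 26 splicing regulators in place of 9, 21 ribonucleoproteins, 38 of the mRNA fate list and 6 of the assembly. Without a low-count filter 5 paralogs were called (2 of them higher), and the median of the top decile was -1.60 over 27363 genes. At least 10 counts in every library left RBMS3 out, so that 8 of the 9 were tested and called, and that median was -1.95 over 13086 genes. With RefSeq spans, an alternative chosen after seeing the data, it was -2.19. In fits lacking 1 library each, the ribonucleoproteins called ranged from 3 to 5 (5 without DMSO replicate 3 or NCD replicate 1), the genes called from 4653 to 5049, and the median of the top decile from -2.20 to -2.01. In those fits the splicing regulators called ranged from 7 (without NCD replicate 2) to 10 (without DMSO replicate 1), the mRNA fate list from 11 to 16 (without the same libraries) and the paralogs from 3 to 4, the fourth being higher. Library totals gave 4 splicing regulators higher and 4 lower in place of 3 and 6. Smaller moves of the list counts under the other alternatives are not listed. The cause of the differences was not tested.

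The replicate number as a block called 4723 genes and 9 of 9 members of the set. Deviations from the group means, for libraries with the same number, correlated at 0.22, -0.19 and 0.02. With only 3 libraries in each group these values cannot decide whether the numbers pair the libraries. The labels tie no number to a shared origin. At 18223594 counts or more per library, genes with a few counts, such as RBMS3 with NCD and the untested paralogs, are limited by counting.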
